A study of Homo sapiens with 20 samples.

Results

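The genes described here are 36 protein-coding genes of glucose use: the glucose and lactate transporters, the enzymes of glycolysis with 2 of its regulators, the lactate dehydrogenases, the enzymes that admit pyruvate to the mitochondrial cycle, and the enzymes of the citrate cycle with glutamate dehydrogenase. They were taken as a list by gene symbol, and all 36 were found among the 20007 protein-coding genes of GENCODE release 44. Binding of the transcription factor c-Myc (MYC) and of RNA polymerase II (POL2) was measured by chromatin immunoprecipitation and sequencing (ChIP-seq) in PC-3, an established epithelial prostate cancer cell line. The 2 groups were wild-type PC-3 cells (WT) and PC-3 cells lacking the kinase gene SLK, labelled PSD10 (SLK-KO). Each group had 3 libraries per antibody, made by one protocol from cells at the same confluence. No treatment or time course was part of the design. The labels do not say how the knockout was made or whether PSD10 is a single clone, so a difference between the groups cannot be told apart from a difference between 2 lines. The series title calls SLK a co-regulator of c-Myc, and the comparisons below ask where MYC and POL2 were found at these genes with and without it.

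Glycolysis splits glucose to pyruvate in the cytosol, lactate dehydrogenase turns pyruvate to lactate, and pyruvate dehydrogenase hands carbon to the citrate cycle in mitochondria. Most steps have several isoenzymes encoded by separate genes, and tumour cells often use one of them more than the others. MYC binds DNA as a pair with MAX, preferably at the E-box CACGTG, and glycolytic genes such as LDHA, ENO1 and HK2 are textbook MYC targets. POL2 gathers just downstream of the start site of active genes, where it pauses before elongation.

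The deposited files give, for each library, the summits of its called peaks, each a single base with a score. A promoter summit is here a summit within 1 kb of any annotated transcription start site (TSS) of the gene, and a gene-body summit lies inside the gene and more than 1 kb from each of its TSSs. Summits were ranked by score within their list, rank 1 being the best, and the rank percentile is the rank as a percent of the list length, so a low percentile is a well-scored summit. The scores are the authors' own, and a rank has meaning only inside its list. Read numbers were not used here and depth is unknown, so a gene without a summit had no called peak in that library and cannot be called unbound.

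List length differed between the groups and touches each comparison of genotypes below. The MYC lists held 365, 201 and 267 summits in WT and 1218, 1420 and 988 in SLK-KO. The POL2 lists held 17126, 5047 and 9925 summits in WT and 19017, 15436 and 16298 in SLK-KO, so that WT replicate 2 was the shortest by far and WT replicate 1 resembled the SLK-KO lists. Pairs of MYC lists shared 0 to 9 summit positions to the base and pairs of POL2 lists 34 to 109, and no list repeated another. Marker genes were read in the POL2 lists to check the cell line. Promoter summits lay in all 6 libraries at the keratin genes KRT8, KRT18 and KRT19 and at VIM, CD44 and TMPRSS2, and at EPCAM in 1 WT and 3 SLK-KO libraries. The leukocyte genes PTPRC and CD3E, the fibroblast gene DCN and the endothelial gene CDH5 had none, while COL1A1 was found in 2 libraries of each genotype and PECAM1 in 1 WT library. The prostate genes KLK2 and KLK3 had no summit of any library within 50 kb.

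MYC was called at few of the genes of glucose use, and at more of them in SLK-KO. MYC promoter summits lay at 10 of the 36 genes in at least 1 library (27.8%, against 9.67% of all protein-coding genes). The members also had POL2 more often than genes at large (83.3% against 53.8%), and the 27.8% is not set against genes matched for POL2. The enolase gene ENO1 stood alone, with a well-ranked summit in 5 of 6 libraries. The other 9 were HK1, HK2, GAPDH, PKM, LDHB, CS, MDH1, MDH2 and GLUD1, each found in 1 to 3 libraries. In WT the 3 libraries had MYC at 2, 2 and 1 of the 36 genes, and in SLK-KO at 6, 7 and 4. The mean share of members was 4.63% ± 1.60 for WT and 15.7% ± 4.24 for SLK-KO (SD over 3 libraries), a difference of 11.1 percentage points without overlap of the libraries. Over all protein-coding genes the share was 1.42% ± 0.393 and 5.51% ± 0.860 (SD, n = 3), so the larger number in SLK-KO was shared by genes at large. When each list was reduced to its 201 best-scored summits, the members' share was 3.70% ± 1.60 for WT and 2.78% ± 0 for SLK-KO (SD, n = 3), and the difference turned to -0.926 points. In lists of equal length each SLK-KO library thus had 1 of the 36 genes, and in each this was ENO1.

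**Figure D1:**
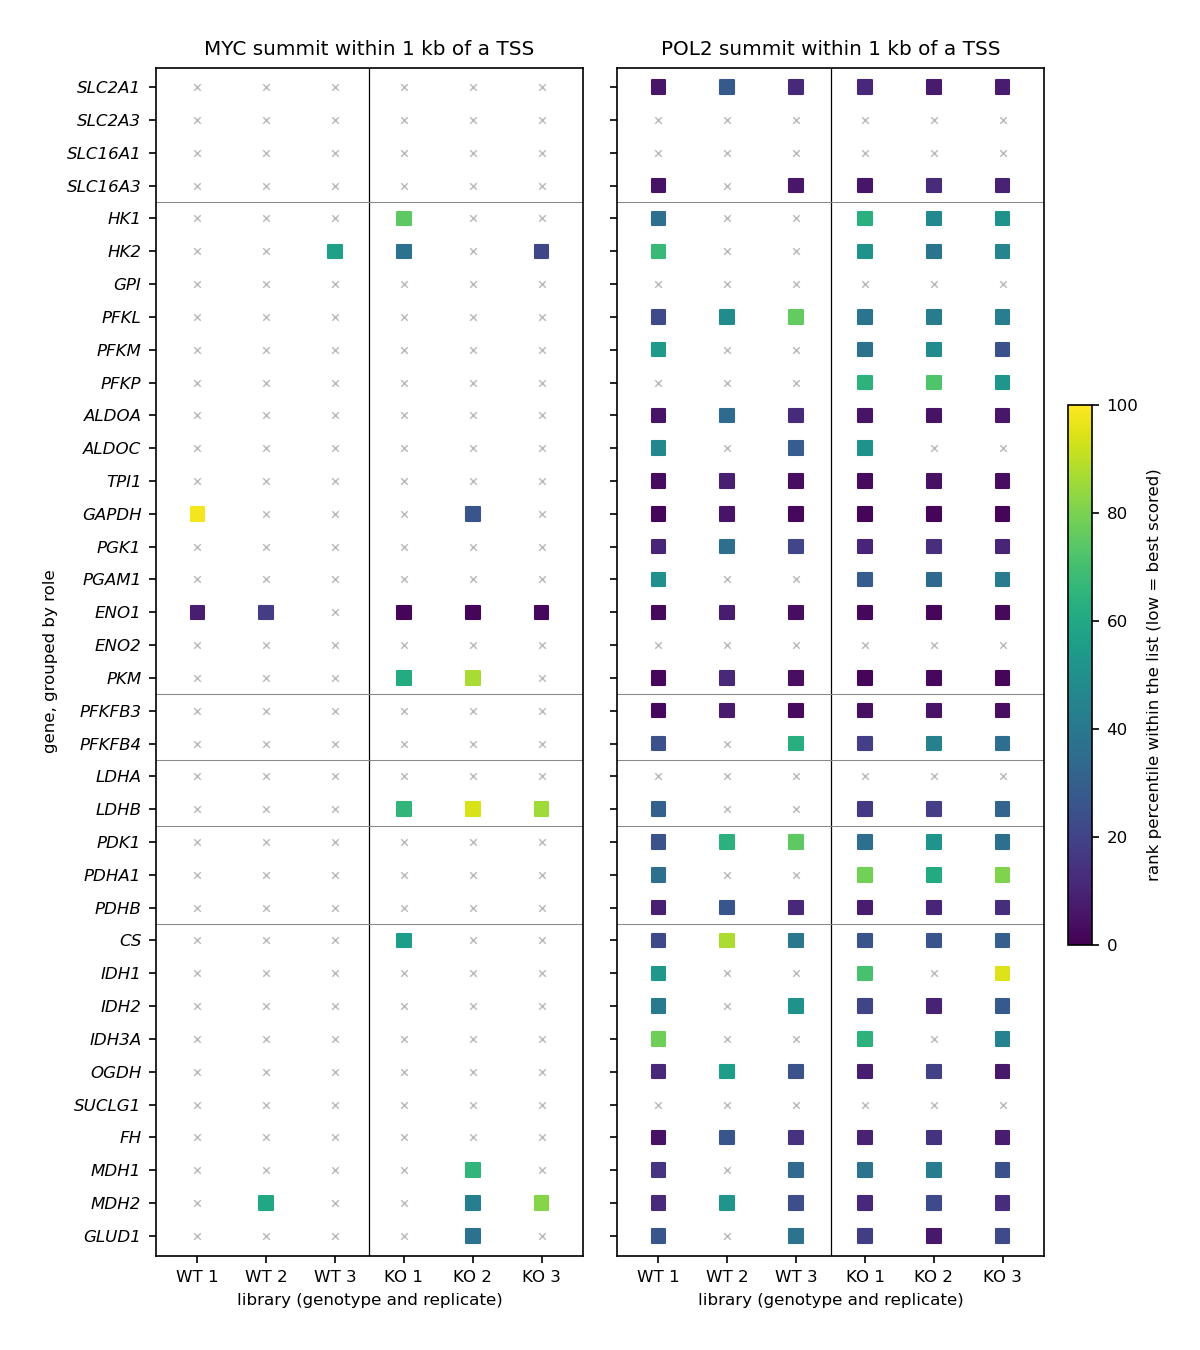
Promoter summits of MYC (left) and POL2 (right) at each of the 36 genes (rows, grouped by role) in each library (columns, WT 1 to 3 and KO, that is SLK-KO, 1 to 3). A filled square is a summit coloured by its rank percentile and a cross is no called summit; MYC fills 5 columns for ENO1 and at most 3 for any other gene, while POL2 fills all 6 for 15 genes.

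ENO1 encodes alpha-enolase, the main enolase outside muscle and neurons. Its MYC summit ranked 30 of 365 and 36 of 201 in WT replicates 1 and 2, and 17, 19 and 21 in the 3 SLK-KO libraries. WT replicate 3 had no MYC summit within 2159220 bp of the gene. The summits of WT replicate 1 and of SLK-KO lay between positions 8878131 and 8878149 of chromosome 1 (GRCh38), in an intron of the canonical transcript and 537 to 555 bp downstream of its TSS. The summit of WT replicate 2 lay at 8878047. Presence in 2 WT and 3 SLK-KO libraries did not separate the genotypes.

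LDHB, the heart-type lactate dehydrogenase subunit, was the member with MYC in all 3 SLK-KO and in 0 WT libraries. Its ranks there were low in the lists, at 796 of 1218, 1333 of 1420 and 846 of 988. Of 1934 protein-coding genes with a MYC promoter summit in any library, 175 (9.05%) had this pattern, and 1 of the 10 members did, a share near that background. The reverse pattern, 3 WT and 0 SLK-KO libraries, was held by 0 members and 0 genes (0% of 1934). The exact two-sided permutation p of LDHB was 0.1, the smallest that 3 against 3 libraries allow, and its Benjamini-Hochberg adjusted p over the 1934 genes was 1.00.

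The remaining 8 genes had MYC in scattered libraries of either genotype. HK2, the inducible hexokinase that traps glucose as its phosphate, ranked 153 of 267 in WT replicate 3 (percentile 57.3). In SLK-KO replicates 1 and 3 it ranked 459 of 1218 and 209 of 988 (percentiles 37.7 and 21.2). MDH2, the mitochondrial malate dehydrogenase, had a summit in WT replicate 2 at rank 120 of 201 (percentile 59.7). In SLK-KO replicates 2 and 3 its ranks were 602 of 1420 and 807 of 988 (percentiles 42.4 and 81.7). GAPDH, the glyceraldehyde-phosphate dehydrogenase, was in WT replicate 1 at rank 358 of 365, close to the end of the list, and in SLK-KO replicate 2 at rank 369 of 1420. These 3 genes were present in both genotypes. PKM, the pyruvate kinase of most tissues, was present in SLK-KO replicates 1 and 2 at ranks 744 and 1237. Single SLK-KO libraries had HK1, the constitutive hexokinase, at rank 916, citrate synthase CS at 672, the cytosolic malate dehydrogenase MDH1 at 927 and GLUD1, which turns glutamate to the cycle intermediate alpha-ketoglutarate, at 528. The GLUD1 summit lay 676 bp from its own TSS and 313 bp from that of the neighbouring coding gene SHLD2. The TSS of another coding gene lay within 1 kb of a MYC summit at 4 of the 10 members (GLUD1, LDHB, MDH1 and MDH2). MYC summits there cannot be assigned to either gene. Of the 10 members, 9 (90.0%) had MYC in more SLK-KO than WT libraries, beside 88.0% of the 1934 genes. The transporters, the regulators PFKFB3 and PFKFB4 and the pyruvate dehydrogenase genes had no MYC promoter summit in any library, and no member had one inside the gene body, where 1.65% of protein-coding genes had at least 1.

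**Figure D2:**
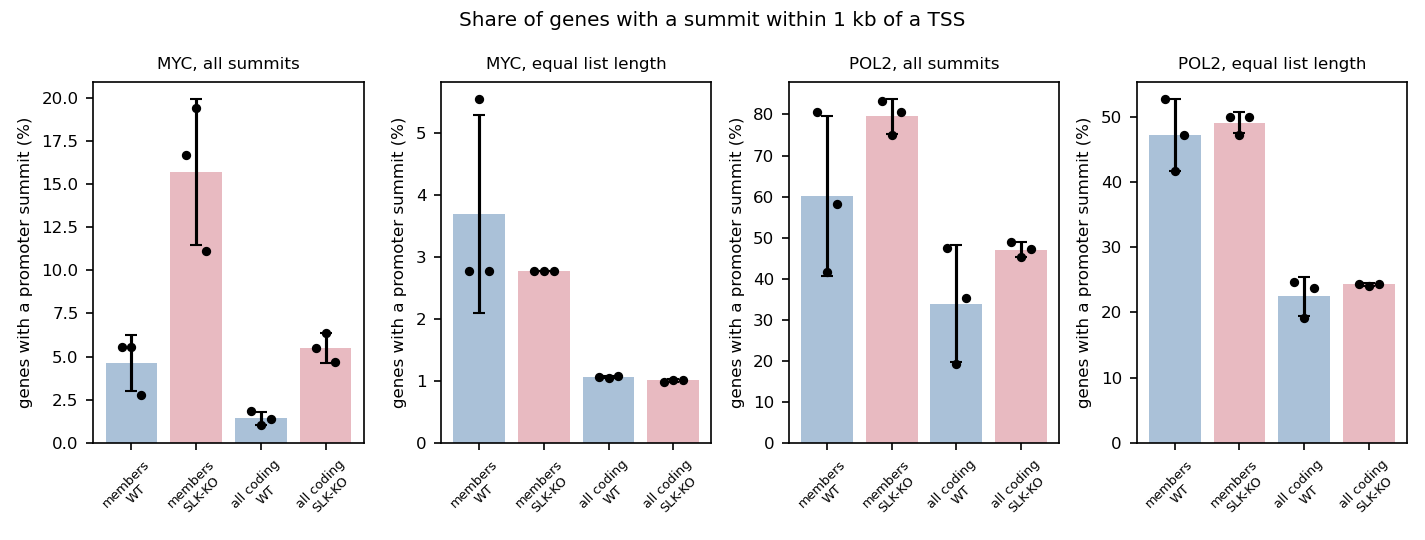
Percent of genes with a promoter summit per library (points), with the mean (bars) and SD (lines) over 3 libraries, for the 36 genes (members) and for all protein-coding genes, in all summits and in lists cut to equal length. MYC at the 36 genes averages 4.63% in WT and 15.7% in SLK-KO with all summits, and 3.70% and 2.78% in lists of equal length.

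The sequence under the MYC summits is shown for some of the genes with MYC, because the letters differ between them. Each window spans up to 100 bases each side of the best-ranked summit and is read from the plus strand of GRCh38, 5′ to 3′. It holds no exon of a coding gene; at ENO1 the exon bases at both ends were left off. Capitals mark CACGTG, or CACGCG on either strand (CGCGTG when read from the plus strand).
HK2, chr2:74834890-74835090: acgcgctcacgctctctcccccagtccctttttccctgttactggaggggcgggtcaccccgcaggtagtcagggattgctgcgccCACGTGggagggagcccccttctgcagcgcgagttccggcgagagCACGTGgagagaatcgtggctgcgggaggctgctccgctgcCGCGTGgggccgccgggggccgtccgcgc
GLUD1, chr10:87095419-87095619: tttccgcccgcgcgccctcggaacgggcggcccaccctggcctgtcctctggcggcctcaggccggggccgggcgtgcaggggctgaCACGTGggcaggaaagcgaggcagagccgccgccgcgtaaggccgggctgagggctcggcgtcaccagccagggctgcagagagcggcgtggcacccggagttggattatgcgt
ENO1, chr1:8878034-8878214: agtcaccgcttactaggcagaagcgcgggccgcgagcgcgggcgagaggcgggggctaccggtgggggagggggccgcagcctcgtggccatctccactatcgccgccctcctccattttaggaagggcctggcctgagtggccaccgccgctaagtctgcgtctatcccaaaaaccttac
The window of HK2 holds CACGTG at 2 places, 8 and 20 bp from the nearest of its 3 summits, and that of GLUD1 holds it 10 bp from the summit. At ENO1, the member with the best MYC ranks, the window lacks CACGTG, and it has no match to CACGCG on either strand. The variant CACATG, searched on both strands too, is also absent there. Where the window reached further into exons, 30 bases around the motif are given instead, as they are for the nearest E-boxes of ENO1.
LDHB, chr12:21657398-21657427: cagctactcgggCACGTGtcccgactcccg
MDH2, chr7:76048264-76048293: cccggcccgggcCACGTGcgtccccggttc
CS, chr12:56299911-56299940: ggtcggcctcctCACGCGttctggactgcg
MDH1, chr2:63588594-63588623: tgcagtctcagtCACGCGcgtgggggtgat
ENO1 first E-box, chr1:8878315-8878344: gcagtcggtaatCACGTGttgatctgcact
ENO1 second E-box, chr1:8878361-8878390: tcgggggcccagCACGTGcgcctggcattg
In LDHB and MDH2 the E-box lay 16 and 6 bp from the nearest of 3 summits. The ENO1 E-boxes lay 180 and 226 bp from the nearest summit, on the side of the canonical TSS, at 357 and 311 bp downstream of it. A CACGCG match of ENO1, not shown, lay closer on the same side, 126 bp from the nearest summit. At MDH1 the capitals mark 1 CACGCG, which overlaps another on the opposite strand that is left in lower case, and both overlapped exons of MDH1 and WDPCP.

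In counts, CACGTG lay within 100 bp of the best MYC summit at 4 of 10 members (HK2, LDHB, MDH2 and GLUD1) and at 27.8% of the 1934 genes. It was in 4.60% of windows around the best POL2 summits of 10764 genes and in 5.66% of windows of the same length around 20007 canonical TSSs. CACGCG was at 4 members (HK2, GAPDH, CS and MDH1), beside 31.1% of genes. CACATG, searched on both strands, was at CS alone, beside 11.5% of genes. With 250 bp each side the E-box count was 5 members, now with ENO1, beside 36.1% of genes. In that window CACGCG was at 7 members, ENO1 among them, beside 47.0% of genes, and CACATG at 2 beside 19.0%. Under the POL2 summits of the 30 members that had one, CACGTG within 100 bp was found at GLUD1 only. These are matches of letters, not sites shown to be bound.

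MYC and POL2 summits were compared between libraries of the same genotype and replicate number, a match by number only. Of 22 MYC summits at members, 7 had a POL2 summit within 250 bp in the same-numbered library, 0 of 5 in WT and 7 of 17 in SLK-KO. These counts depend on that match. HK2 in WT replicate 3 counted as apart because that POL2 list had no promoter summit there. MDH2 in WT replicate 2 (76048296) also counted as apart, though POL2 of WT replicate 1 lay at 76048163. Over all protein-coding genes POL2 lay within 250 bp for 2318 of 4160 MYC entries (55.7%), with 50.4% in WT and 57.1% in SLK-KO. An entry is 1 gene with a MYC promoter summit in 1 library, so a summit near several genes counted once for each. The difference from genes at large was not tested, and with lists of unequal length the genotypes cannot be compared on 5 and 17 summits. At ENO1 the MYC summit lay 501 to 570 bp downstream of the POL2 summit in the 5 libraries. At GAPDH it lay upstream, 479 bp away in WT replicate 1 and 444 bp in SLK-KO replicate 2. GLUD1 in SLK-KO replicate 2 had the closest pair, 69 bp apart, and PKM, HK2 and MDH2 gave the other 6. Over all 22, the median distance to the nearest of any annotated TSS of the gene was -51 bp (upstream). Of them 40.9% lay within 100 bp of one, beside 46.0% of the 4160 entries of all genes. Measured from the canonical TSS, the summits of ENO1, HK1, HK2, LDHB, CS and MDH2 lay downstream. Those of GAPDH, PKM, MDH1 and GLUD1 lay upstream of it.

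**Figure D3:**
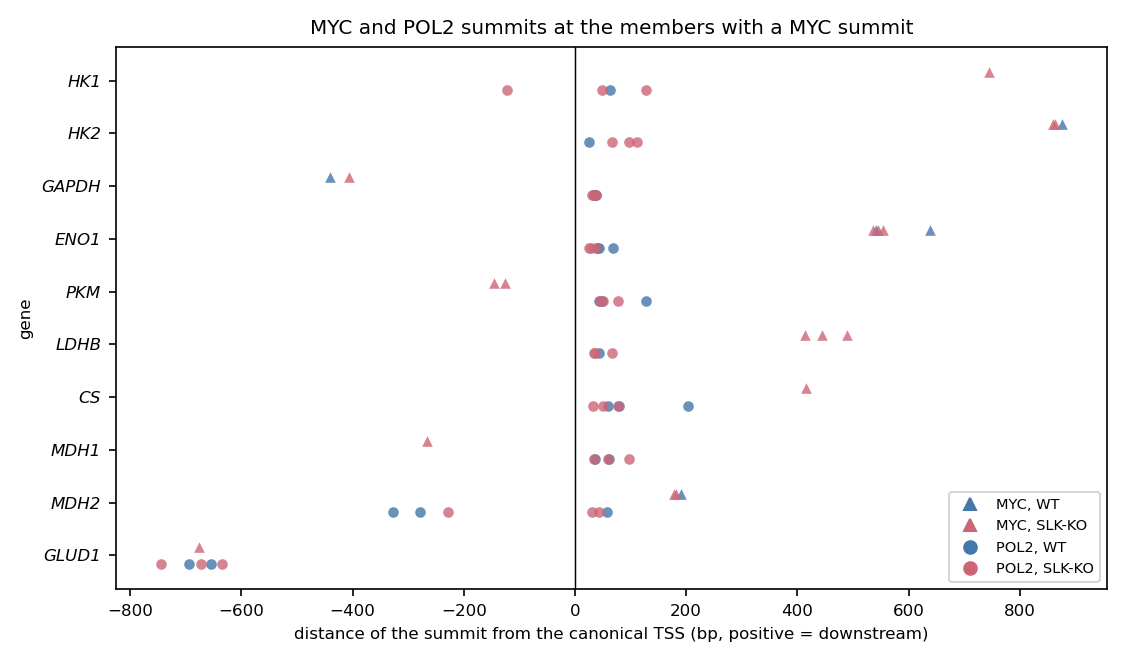
Distance from the canonical TSS (bp, positive downstream) of the MYC (triangles) and POL2 (circles) promoter summits at the 10 genes with MYC, 1 point per library and summit, blue for WT and red for SLK-KO. At ENO1 the MYC summits sit 537 to 639 bp downstream while POL2 sits 26 to 69 bp downstream; at GLUD1 both lie upstream of the gene.

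POL2 was present at most of the genes of glucose use in both genotypes. In at least 1 library 30 of 36 genes had a POL2 promoter summit (83.3%, against 53.8% of protein-coding genes). All 6 libraries had one at 15 genes: SLC2A1, PFKL, ALDOA, TPI1, GAPDH, PGK1, ENO1, PKM, PFKFB3, PDK1, PDHB, CS, OGDH, FH and MDH2. These were 50.0% of the 30, beside 33.6% of the 10764 genes with POL2 in any library. By library 29, 15 and 21 members had POL2 in WT and 30, 27 and 29 in SLK-KO. The mean share of members was 60.2% ± 19.5 for WT and 79.6% ± 4.24 for SLK-KO (SD over 3 libraries), 19.4 points apart with overlapping libraries. The difference was 29.6 points without WT replicate 1 and 10.2 without WT replicate 2, so single WT libraries moved it by more than 1.5 times. Over all protein-coding genes the shares were 33.9% ± 14.2 and 47.1% ± 1.92 (SD, n = 3). In lists of 5047 summits the members stood at 47.2% ± 5.56 and 49.1% ± 1.60 (SD, n = 3), 1.85 points apart, less than the spread between the WT libraries.

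The genes without a summit differed between the WT libraries. Of the 15 members not in all 6 libraries, SLC16A3, PFKFB4, IDH2, MDH1 and GLUD1 were missing from WT replicate 2 only. HK1, HK2, PFKM, PGAM1, LDHB and PDHA1 were present in WT replicate 1 and the 3 SLK-KO libraries. IDH1 and IDH3A were in WT replicate 1 and SLK-KO replicates 1 and 3. ALDOC, the brain-type aldolase, was the member found in more WT than SLK-KO libraries, with ranks of 7982 and 2889 in WT replicates 1 and 3 and 9591 in SLK-KO replicate 1. POL2 was in more SLK-KO than WT libraries at 14 of 30 members (46.7%), beside 56.8% of the 10764 genes.

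PFKP, the platelet phosphofructokinase, was the member with POL2 in 3 SLK-KO and 0 WT libraries. Its ranks were 12236 of 19017, 11174 of 15436 and 8516 of 16298. The 3 summits lay at positions 3068605, 3067568 and 3068430 of chromosome 10, that is 1057, 20 and 882 bp downstream of the canonical TSS, so they did not mark 1 place. With the canonical TSS alone SLK-KO replicate 1 no longer counted and the pattern was gone. Of the 10764 genes 309 (2.87%) had the pattern, and 1 of 30 members did, close to that background. The reverse pattern was seen at 0 members and at 2 genes (0.0186%). The exact two-sided permutation p of PFKP was 0.1 and its adjusted p 1.00, and no gene of either antibody could pass 0.05 in this design. Without WT replicate 1 the count was 7 members (HK1, HK2, PFKM, PFKP, PGAM1, LDHB and PDHA1). The share over all genes under this looser rule is not given here, and the 2.87% does not apply to it. No excess of members is read from the 7.

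GAPDH, PKM and ENO1 had the best-scored POL2 summits of the 36 genes. Median percentiles below are over the libraries in which the gene had a promoter summit, and their number is given where it is under 6. GAPDH had ranks of 215, 272 and 205 in WT and 235, 198 and 208 in SLK-KO, in the best 1.24 to 5.39% of each list. PKM had 329, 558 and 377 in WT and 254, 348 and 207 in SLK-KO. ENO1 had 420, 377 and 332 in WT and 380, 271 and 391 in SLK-KO. The ranks of these 3 genes overlapped between genotypes, and WT replicate 2, the shortest list, gave each its highest percentile. TPI1, the triose-phosphate isomerase, had a median percentile of 3.2. PFKFB3, which makes the allosteric activator of phosphofructokinase, had 3.83, and ALDOA, the aldolase of muscle and most cells, 5.66. The lactate exporter SLC16A3 had 5.87 over 5 libraries and the glucose transporter SLC2A1 9.25. PGK1, the phosphoglycerate kinase, had 11.9. PGAM1, the phosphoglycerate mutase between PGK1 and ENO1, stood lower at 37.5 over 4 libraries and was absent from WT replicates 2 and 3.

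The hexokinases and phosphofructokinases stood further down. HK1 had a median percentile of 48.8 and HK2 of 47.7, each over 4 libraries, and both were absent from WT replicates 2 and 3. PFKL, the liver-type phosphofructokinase, was present in all 6 libraries with percentiles of 22.3, 48.2 and 76.0 in WT and 38.4, 41.4 and 42 in SLK-KO. Its summits were spread over 44300167 to 44300615 of chromosome 21, in a coding exon or an intron of the canonical transcript. PFKM, the muscle phosphofructokinase, had POL2 at -13348 to -13130 bp from its canonical TSS, at the start of a longer transcript, where the distance to the TSS of the neighbouring gene SENP1 (median 68 bp) was as short as to its own (74.5 bp).

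Among the mitochondrial genes, PDHB (the beta subunit of pyruvate dehydrogenase) and FH (fumarase) led with median percentiles of 11.1 and 11.9, followed by OGDH (oxoglutarate dehydrogenase) at 15.3 and MDH2 at 17.7. GLUD1 stood at 22.5 over 5 libraries and CS at 28.1. PDHA1, the alpha subunit of the same pyruvate dehydrogenase complex as PDHB, had 69.7 over 4 libraries, against 6 libraries for PDHB. PDK1, the kinase that switches pyruvate dehydrogenase off, was found in all 6 at 44.2. IDH3A, a catalytic subunit of the NAD-linked isocitrate dehydrogenase of the cycle, stood at 64.3 over 3 libraries. Within each of the 6 lists the members' median percentile was lower, that is better scored, than that of genes at large. It was 22.1, 28.1 and 20.9 in WT and 17.8, 18.3 and 24.5 in SLK-KO, beside 28.2, 39.7 and 36.4, and 26.7, 29.9 and 29.8 for all genes with a POL2 promoter summit.

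POL2 summits at the members sat on the start site. Of 151 promoter summits (1 per gene and library) 81.5% lay within 100 bp of a TSS, beside 63.8% of 48657 for all genes, and 72.2% lay downstream, beside 58.2%. The median was 13 bp downstream. GAPDH had its 6 summits between positions 6534547 and 6534555 of chromosome 12, and PFKFB3 had them 27 to 41 bp downstream of its canonical TSS. GLUD1 differed, with its summits at -745 to -635 bp, upstream of the gene. There the TSS of SHLD2, transcribed the other way, was closer in 5 of 5 libraries (median 309 bp against 672 bp). At IDH1 the antisense gene IDH1-AS1 was closer in 3 of 3. In all, 15 of the 30 members had the TSS of another gene within 1 kb of a POL2 summit, and 6 of them that of a coding gene (GLUD1, LDHB, MDH1, MDH2, PFKM and PGAM1). POL2 summits carry no strand, so the summit cannot be assigned to either gene there.

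No POL2 promoter summit was found at 6 members, and they fell into 2 kinds. LDHA (muscle-type lactate dehydrogenase), the lactate transporter SLC16A1 and SUCLG1 (a succinyl-CoA ligase subunit) had no summit of either antibody in any library within 50 kb, the nearest POL2 summit being 118304, 61941 and 444838 bp away. Such blank neighbourhoods held 3 of 36 members (8.33%) and 4892 of 20007 protein-coding genes (24.5%). What made them blank was not tested, and these 3 genes are not read as free of MYC or POL2. The other 3 were the glucose transporter SLC2A3, phosphoglucose isomerase GPI and the neuronal enolase ENO2. Their nearest POL2 summits lay 7932, 2013 and 2326 bp from the gene, and none lay within 1 kb of their own TSSs. Whether these summits lay at the TSS of another gene was not tested.

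Of the 12 isoenzyme pairs on the list, 10 could be compared within the POL2 lists, since the blank genes LDHA and SLC16A1 left out their pairs. The measure was the difference in rank percentile in each of the 6 libraries, a gene without a promoter summit being set at 100, with an exact two-sided sign-flip permutation test (64 flips, smallest p 0.031) and Benjamini-Hochberg adjustment over the 10 pairs. In 2 of the 10 pairs, ENO1 with ENO2 and SLC2A1 with SLC2A3, the second gene had no promoter summit in any library, so its value of 100 fixed the direction and these pairs are given as a description. In 4 of the other 8 pairs one gene was ahead in 6 of 6 libraries, at an exact p of 0.031 each. The adjusted exact p was 0.0521 over the 10 pairs and 0.0625 over these 8, a set chosen after seeing the data, and 0 pairs passed 0.05. With canonical TSSs only these 4 pairs had an adjusted exact p of 0.0446 over 10 pairs. That value fell because PFKL with PFKM joined the smallest p, PFKM then standing at 100 in each library. Over the 6 pairs with both genes present, also a set chosen after seeing the data, the adjusted exact p was 0.0469. PFKP was then absent from SLK-KO replicate 1 as well as from WT. These values depend on which pairs entered the adjustment, so no conclusion is drawn from them.

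Differences are the first gene minus the second, so a negative value means that the first gene ranked better. ENO1 had POL2 in 6 of 6 libraries, at percentiles of 1.76 to 7.47, and ENO2 in 0 of 6. SLC2A1, the basal glucose transporter, was present in 6 at 5.77 to 28.1, and SLC2A3, the high-affinity transporter of neurons, in 0. ALDOA, present in 6 libraries, led ALDOC, present in 3, by -59.7 ± 31.2 (SD, n = 6 libraries), with the absent libraries of ALDOC at 100. In these 3 pairs the ubiquitous isoenzyme had POL2 in each library and the brain-type one in 3 or none. PFKFB3 led PFKFB4, the other common form of this regulator, by -43.2 ± 28.8, with PFKFB4 absent from WT replicate 2 and set at 100 there. PFKL led PFKP, which was absent from the WT libraries, by -36.8 ± 24.1. Among the malate dehydrogenases the mitochondrial MDH2 led, with MDH1 minus MDH2 at 19.9 ± 16.0 and mean percentiles of 42.2 for MDH1 and 22.4 for MDH2. MDH1 was absent from WT replicate 2 and set at 100 there. All 6 MDH2 summits lay within 1 kb of a TSS of the coding gene STYXL1, and 3 were closer to it. All 5 MDH1 summits lay within 1 kb of a TSS of the coding gene WDPCP. The order is therefore that of the promoter regions and cannot be assigned to MDH1 and MDH2 alone.

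The other 4 pairs were not separated in each library. IDH2, the mitochondrial NADP-linked isocitrate dehydrogenase, led its cytosolic counterpart IDH1 in 5 libraries with 1 tie, IDH1 minus IDH2 being 44.8 ± 33.7 (exact p = 0.0625, adjusted 0.0893). PFKM led PFKP in 4 libraries with 2 ties, by -20.9 ± 17.9 (exact p = 0.125, adjusted 0.156). This order turned to 12.6 when only canonical TSSs counted, because PFKM then had no summit. PFKL and PFKM differed by -15.8 ± 24.9 (exact p = 0.188, adjusted 0.208), PFKL being ahead in 4 libraries. With canonical TSSs only the difference was -55.3 (adjusted exact p = 0.0446), PFKM standing at 100 in each library and the direction being fixed by that. HK1 and HK2 differed by -0.743 ± 16.0 (exact p = 1.00), with HK1 ahead in WT replicate 1, HK2 ahead in the 3 SLK-KO libraries and neither present in WT replicates 2 and 3. Whether that order differs by genotype was not tested, as 1 WT library had both genes.

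**Figure D4:**
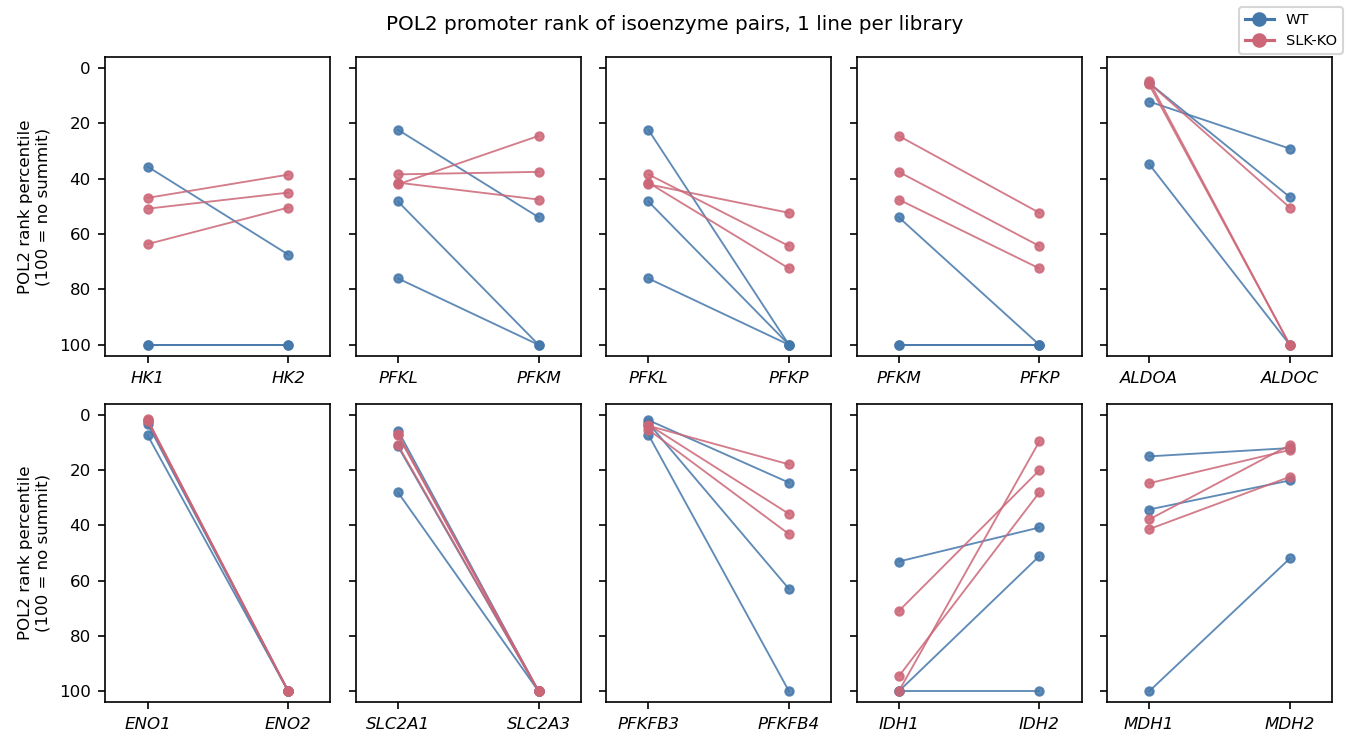
POL2 rank percentile (axis reversed, 0 at the top is the best score and 100 is no promoter summit) of both genes of each of the 10 pairs compared, 1 line per library, blue for WT and red for SLK-KO. All 6 lines slope the same way for 6 pairs; for ENO1 with ENO2 and SLC2A1 with SLC2A3 the second gene stands at 100 throughout, and HK1 with HK2 crosses.

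Inside gene bodies POL2 was called at 13 of the 36 genes (36.1%, against 21.4% of protein-coding genes), and at SLC2A1, SLC16A3 and ENO1 in all 6 libraries (8.33% against 2.34%). At SLC16A3 the 4 summits of WT replicate 2 lay outside its canonical transcript and within 1 kb of a TSS of CSNK1D. Its place in all 6 libraries, and so the 8.33%, rests on them. ENO1, a gene of 18191 bp, had 1, 3 and 5 gene-body summits in WT and 3, 4 and 6 in SLK-KO. SLC2A1 had 6, 2 and 2 in WT and 4, 3 and 3 in SLK-KO, all in introns. PKM had 2, 0 and 0 in WT and 5, 3 and 2 in SLK-KO, and OGDH 2, 0 and 0 in WT and 2, 3 and 3 in SLK-KO. The counts of the first 2 genes overlapped between genotypes, and those of PKM and OGDH met at 2. In OGDH 1 summit recurred 26.78 to 26.83 kb into the gene in the 3 SLK-KO libraries, and in WT replicate 1 the nearest lay at 27.53 kb. HK2 had 1 summit 11.36 to 11.60 kb from its TSS in WT replicate 1 and the 3 SLK-KO libraries. PFKP again had summits in SLK-KO only, 2, 1 and 1 of them, 27.82 to 28.82 kb from its TSS.

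The share of members with a gene-body summit was 14.8% ± 6.99 for WT and 24.1% ± 1.60 for SLK-KO (SD, n = 3), 9.26 points apart, with 8, 3 and 5 genes in WT and 9, 9 and 8 in SLK-KO. For all protein-coding genes it was 7.55% ± 5.00 and 12.9% ± 1.91 (SD, n = 3). The members' difference was 6.02 points without WT replicate 2. In lists of equal length it turned to -3.70 points, with 6.48% ± 1.60 for WT and 2.78% ± 0 for SLK-KO (SD, n = 3). Of the 121 gene-body summits 24 lay within 1 kb of the TSS of another gene. Most of these were at SLC16A3, whose annotated span reaches across the kinase gene CSNK1D: 18 summits there lay near a CSNK1D start.

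**Figure D5:**
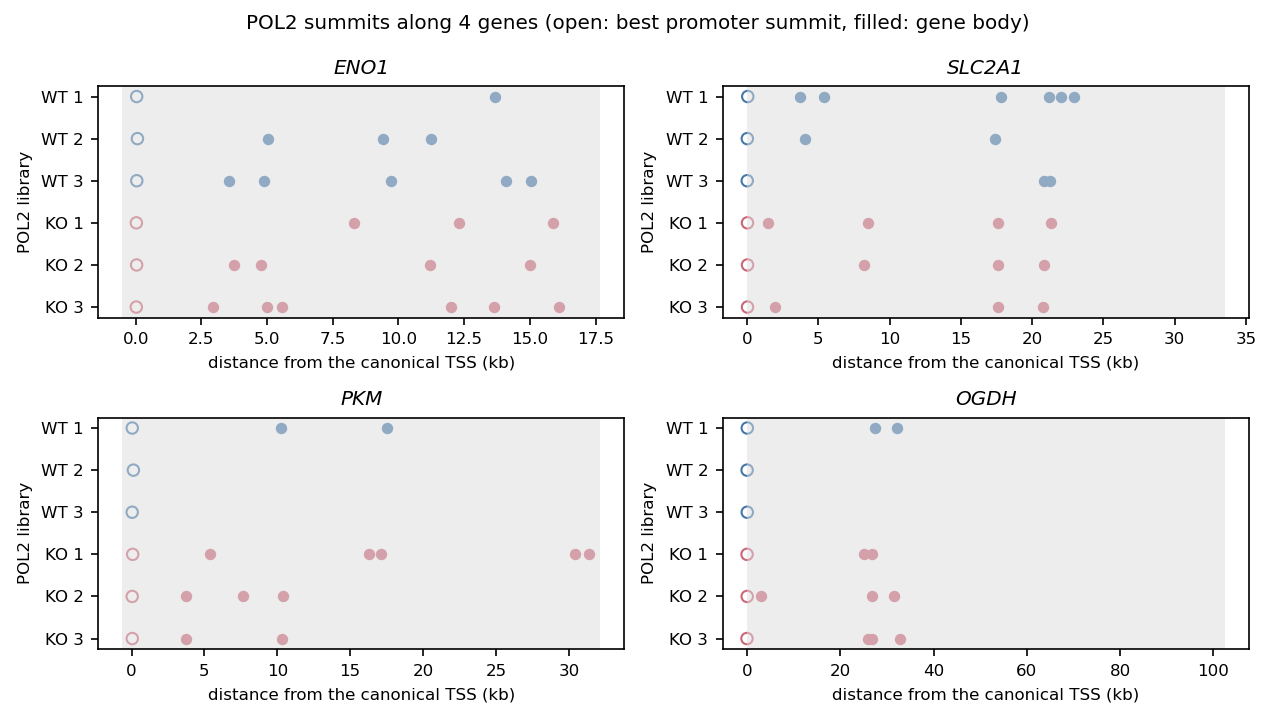
POL2 summits along ENO1, SLC2A1, PKM and OGDH by distance from the canonical TSS (kb), 1 row per library, with the best promoter summit open, gene-body summits filled and the annotated gene in grey. PKM and OGDH have filled points in WT 1 and in the 3 SLK-KO libraries and none in WT 2 and WT 3.

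Of 61 further genes of central carbon metabolism (other hexokinases, transporters, pyruvate carriers, cycle enzymes and the pentose phosphate pathway), 7 had a MYC promoter summit in any library: PDK2, PDP1, DLAT, MPC1, PC, SUCLA2 and TKT. TKT, the transketolase, was found in 2 SLK-KO libraries and each of the others in 1 library. Their MYC share was 0.546% ± 0.946 for WT and 3.83% ± 0.946 for SLK-KO (SD, n = 3), and 0 of them had MYC in all 6 libraries or in 3 SLK-KO and 0 WT libraries. POL2 was at 45 of the 61 in any library and at 12 in all 6, and GOT2, the mitochondrial aspartate aminotransferase, was the one with 3 SLK-KO and 0 WT libraries. No neighbouring summit of any library lay within 50 kb of 6 of these genes.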

How the data were processed

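MYC and POL2 ChIP-seq of WT and SLK-KO PC-3 cells was analysed from 12 summit lists of the 20 samples, without the 6 IgG and 2 Input libraries. The labels name GRCh38.p14 as the genome and nf-core/chipseq v2.1.0 as the workflow, and the submitters' processing notes name BWA 0.7.18-r1243 and MACS3 3.0.1. The control library and the caller's options are not given in the sources used here. Peaks were called per library. In the deposited lists the score was taken to be −log10 q, since the lowest score of each list lay just above 1.30103.

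The members, gene lists and named genes were chosen with earlier results of these data known. All 36 members are accounted for. Named with their values were those with a MYC promoter summit, those in isoenzyme pairs, those in 3 libraries of one genotype and 0 of the other, and those without POL2. Presence per coding gene was compared by exact permutation of 3 against 3 libraries (20 relabellings) with Benjamini-Hochberg adjustment over all genes with a summit. The counting was also run on simulated data with the called pattern written in. Recovery there was fixed by construction, so that run checks the code and not the results. Nothing says that replicates were separate cultures beyond being called biological, so p-values measure the spread between these libraries. Alternatives were windows of 500 bp and 2 kb, canonical TSSs, a score of at least 5, equal list lengths, a replicate block, and each library left out in turn. Python 3.11.15, numpy 2.4.6, pandas 2.3.3 and matplotlib 3.10.9 were used. Some of the marker genes and sequences read are not reported here.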

Additional observations from a re-analysis of the deposited data

How the results depend on the processing

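Of the alternative values for the comparisons and counts of members, 99 were counted as the same as the main one, 9 as moved and 2 as reversed. Values of 0 that stayed at 0 are among the 99, and a moved value could keep its sign. Counted as the same did not mean close in value. The 99 held POL2 share differences of 29.6 points without WT replicate 1 and 10.2 without WT replicate 2, beside 19.4 in the main setting. They held the gene-body difference of 6.02 points without WT replicate 2, beside 9.26. A count whose member changed could also be among them. For the pairs 99 were counted as the same, 7 passed the threshold (all with canonical TSSs only, 3 of them with a gene at 100 in each library) and 2 reversed. The MYC share difference was 5.56 points with a score of at least 5, -0.926 in lists of equal length, and 9.26 to 13.4 with 1 library left out. The POL2 share difference was 1.85 points in lists of equal length, and that of gene bodies -3.70. The cause of these shifts was not tested apart from list length, which the equal-length alternative sets by construction. MYC in 3 SLK-KO and 0 WT libraries was held by 0 members with a score of at least 5 and by 0 in lists of equal length, and by 1 to 2 with 1 library left out (PKM joined LDHB without SLK-KO replicate 3). MYC in every library was held by 0 to 1 members with 1 library left out (ENO1 without WT replicate 3). POL2 in 3 SLK-KO and 0 WT libraries was held by 0 members with canonical TSSs only and by 0 with a score of at least 5, and by 1 to 7 with 1 library left out. For the counts with 1 library left out, the shares over all genes are not given. In lists of equal length the 1 member was IDH2 in place of PFKP. PFKM minus PFKP was 12.6 with canonical TSSs only, and HK1 minus HK2 ran from -3.53 to 5.47 with 1 library left out. With 5 libraries the smallest exact permutation p of a pair was 0.0625, so no pair could pass there. Same-numbered libraries shared only a number: the correlations of their deviations were 0.0211, 0.0525 and -0.0206 for MYC and 0.0525, -0.00876 and -0.0157 for POL2. With a replicate block the mean share differences were 11.1 points for MYC and 19.4 for POL2, which pairing cannot change in a balanced design. The paired differences were 11.1, 13.9 and 8.33 points for MYC and 2.78, 33.3 and 22.2 for POL2. Depth is unknown, and it limits what a missing summit can mean.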
